A study of Mus musculus with 20 samples.

Results

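The actin crosslinking and contractile genes described here are 10 mouse genes: Flnc, Flna, Mylk, Acta2, Tagln, Cnn1, Myl9, Tpm2, Ablim1 and Aif1l. They were chosen by symbol from the 17104 genes listed in any of 3 expression tables of prostate cancer cells sorted from bone lesions. Of the 10, Flnc, Aif1l, Mylk and Ablim1 (4 genes) were selected on their rise in enzalutamide-resistant tumors, and the other 6 were selected on related function. The cancer cells were MycCaP-Bo, a bone-homing derivative, selected in vivo, of a cell line from a Myc-driven mouse prostate tumor, labelled with iRFP and luciferase and injected into the heart of FVB/N mice aged 4 to 6 weeks, so every group shares 1 parental line. Naive tumors came from vehicle-treated mice, and Resist tumors from mice given enzalutamide, an anti-androgen, at 30 mg/kg daily for 18 days. Resist-Mac tumors had the same enzalutamide course plus clodronate liposomes, which deplete macrophages, at 1 mg per mouse in the last 4 days. The further group, called Naive-Mac here, had vehicle plus clodronate liposomes for 4 days. Each group has 5 libraries of CD45-negative, iRFP-positive cells, and each library pools 3 mice, so p-values measure the spread between pools.

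Filamins crosslink actin filaments into networks and tie them to membrane receptors. Contraction in smooth muscle and in motile cells starts when calcium and calmodulin activate myosin light chain kinase, the product of Mylk, which phosphorylates myosin regulatory light chains such as that encoded by Myl9. Acta2, Tagln, Cnn1 and Tpm2 encode the smooth muscle actin, transgelin, calponin and beta-tropomyosin that serve as classical markers of smooth muscle and myofibroblasts, and many of these genes respond to serum response factor (SRF) and its MRTF cofactors. Ablim1 encodes an actin-binding LIM protein, and Aif1l encodes an EF-hand actin-binding paralog of the macrophage protein Iba1, the product of Aif1.

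The upstream sequences of these genes are shown because 4 of the members were higher together in Resist tumors and because SRF, TEAD factors and AP-1 are commonly linked to actin genes. RefSeq promoter entries (build GRCm38.p6) matched 9 of the 10 symbols with 14 starts, since Ablim1 has 5 starts and Flnc 2; Tagln had no entry. Each 250-base stretch before a start was searched on both strands for the TEAD motif GGAATG and the AP-1 motif TGANTCA. The CArG box bound by SRF was searched in the same way as the strict pattern CCWWWWWWGG, where W is A or T. The matches shown do not overlap each other. The TEAD motif was present before 5 of the 14 starts, those of Flnc, Flna, Mylk, Acta2 and Ablim1, and it is present in 12.6% of the 32851 mouse promoter stretches of this length. The windows below run 5′ to 3′ on the strand of the gene, with the TEAD motif, or its reverse complement, in capitals.
Flnc, chr6:29433140-29433169, plus strand: cgggccgggcggCATTCCtgggaggccggc
Flna, chrX:74246663-74246692, minus strand: ggcgttgtggggCATTCCaacgggaggggc
Mylk, chr16:34784780-34784809, plus strand: tgcagttcagaaCATTCCctggtacgtgca
Acta2, chr19:34255502-34255531, minus strand: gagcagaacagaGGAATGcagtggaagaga
Ablim1, chr19:57274871-57274900, minus strand: catttctgttagCATTCCttctaggctccg

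The AP-1 motif was present before 2 of the 14 starts, against 6.75% of all stretches, and the strict CArG pattern before 1 of 14, against 1.47%. Variants of the CArG box were not searched for, so a stretch without a match can still hold one. The capitals in the next windows mark the AP-1 motif of Mylk, which lies 64 to 58 bases before its start, the AP-1 motif of Ablim1, 168 to 162 bases before its second listed start, and the CArG box of Myl9, 161 to 152 bases before its start. A match describes letters in a window and no binding was measured.
Mylk, chr16:34784875-34784903, plus strand: gaaggcactggTGAGTCAgcagggcttaa
Ablim1, chr19:57274819-57274847, minus strand: caggtactgccTGACTCActataaaaggg
Myl9, chr2:156775293-156775322, plus strand: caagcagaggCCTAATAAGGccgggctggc

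Levels are in FPKM, which divides reads by transcript length and by the size of the library, so they can be compared between genes. Naive and Resist libraries share 1 table, and Resist-Mac and Naive-Mac libraries each have a table of their own. Each table was taken as 1 batch, so the batch cannot be told apart from the treatment in any comparison across tables. The column names of Resist-Mac and Naive-Mac libraries hold digits that may be dates and that differ within a group. Batches within a group are therefore possible and were not tested. The tables also differ gene by gene: Rpl3, a ribosomal protein gene, was at 0.78 to 2.08 FPKM in Naive and Resist libraries and at 1414 to 3292 FPKM in the others. Read counts are not given, and only 3 low genes of the first table fell on shared steps, too few to recover depth; 31 and 48 such genes put the relative depth at 0.94 to 1.07 in Resist-Mac and 0.93 to 1.06 in Naive-Mac libraries. Calls come from limma on log2(FPKM + 1) of all genes that averaged at least 1 FPKM, and need both a fold change over 1.5 and an adjusted p (Benjamini-Hochberg) under 0.05. Of the epithelial markers, Krt8 (84.8 to 408 FPKM) was high in every library, while Krt18 and Cdh1 did not exceed 0.23 and 0.18 FPKM and Epcam was listed in the Naive-Mac table only, at up to 0.05 FPKM.

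In Resist tumors the genes chosen for their rise ranged from the abundant Flnc and Aif1l to the scarce Mylk and Ablim1. The values that chose these 4 genes are given as a description, with no test, and fewer cells of a type and less RNA per cell cannot be told apart in these pooled libraries. Flnc (Entrez gene 68794), the filamin typical of skeletal and heart muscle, was at 6.07, 6.83, 7.09, 8.16 and 6.18 FPKM in Naive replicates 1 to 5 and at 25.4, 19.9, 23.5, 28.3 and 21.5 FPKM in Resist replicates 1 to 5. The groups did not overlap, and the Flnc mean was 6.87 ± 0.84 FPKM (SD, n = 5) in Naive and 23.7 ± 3.29 (SD, n = 5) in Resist, 3.45-fold higher. Aif1l (Entrez gene 108897) was at 2.89, 3.18, 4.59, 3.60 and 2.13 FPKM in the Naive libraries and at 44.2, 35.1, 25.7, 35.1 and 13.6 FPKM in the Resist libraries, where replicate 5 was lowest. Its mean was 9.37-fold higher in Resist, at 30.7 ± 11.6 FPKM (SD, n = 5) against 3.28 ± 0.91 (SD, n = 5), and its log2 change of 2.82 was 3rd from the highest of 10119 genes tested.

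Mylk (Entrez gene 107589) was at 1.05, 1.17, 1.80, 1.82 and 1.83 FPKM in Naive and at 5.91, 9.29, 5.76, 10.7 and 5.08 FPKM in Resist libraries. Every Resist library was above every Naive library, with a log2 change of 1.69 (SE 0.19). Ablim1 (Entrez gene 226251) was at 0.64, 1.00, 1.08, 1.16 and 0.59 FPKM in Naive and at 4.37, 2.18, 3.8, 6.06 and 4.34 FPKM in Resist libraries, and again the groups did not overlap (log2 change 1.41, SE 0.19). Among all genes tested, Mylk, Flnc and Ablim1 stood at positions 33, 39 and 70 from the highest log2 change, and 12.8% of all genes tested did not overlap between Naive and Resist. Once transcript length and GC were corrected for, the log2 changes of Flnc, Aif1l, Mylk and Ablim1 were 1.45, 2.73, 1.52 and 1.29.

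**Figure D1:**
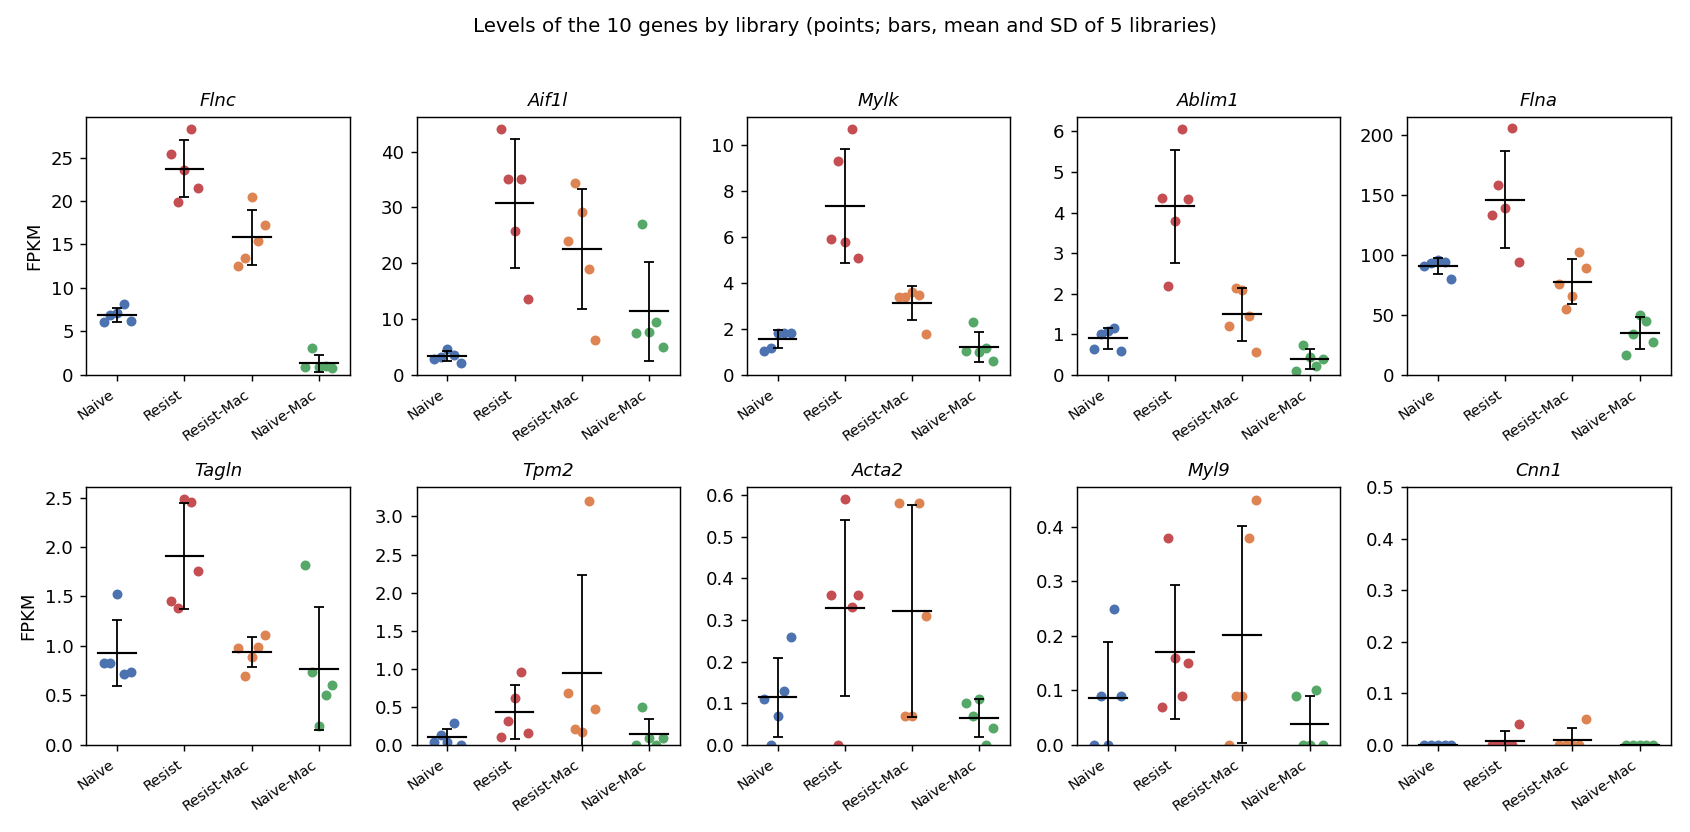
FPKM (vertical axes, linear, from 0) of the 10 genes in the 4 groups; points are single libraries in order of replicate number, and bars give the mean and SD of 5 libraries, cut off at 0 where the SD is larger than the mean. Flnc, Aif1l, Mylk and Ablim1 do not overlap between Naive and Resist, and Cnn1 is at 0 in all but 2 of the 20 libraries.

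The members chosen on function split into Flna and Tagln, which were expressed above the filter and rose in Resist vs Naive, and Acta2, Cnn1, Myl9 and Tpm2, which stayed under it. Flna (Entrez gene 192176), the broadly expressed filamin, was the most abundant member, at 90.6, 93.4, 95.6, 94.1 and 79.6 FPKM in Naive and 133, 158, 139, 206 and 94.2 FPKM in Resist libraries. The groups overlapped, since Resist replicate 5 was below Naive replicate 3, and Flna rose 1.61-fold on average (log2 change 0.64, SE 0.16, limma adjusted p = 0.0157). Tagln (Entrez gene 21345), which encodes the actin-bundling transgelin, was at 0.83, 0.83, 1.52, 0.72 and 0.74 FPKM in Naive and 1.45, 1.38, 2.49, 2.46 and 1.76 FPKM in Resist libraries. The groups overlapped through Naive replicate 3 alone, and the rise was 2.06-fold in mean FPKM and 0.59 on the log2(FPKM + 1) scale (SE 0.16, limma adjusted p = 0.0219). The Naive mean of Tagln, 0.928 FPKM, lies under the filter, as does that of Ablim1, 0.894 FPKM, so these genes passed through their Resist libraries.

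In Resist vs Naive, 6 of the 10 members were tested and all 6 of these were called higher, where 5.25% of the 10119 genes tested were called higher; the comparison itself chose 4 of them and Tagln passed the filter through Resist alone, so nothing is read from this count. The calls of Flna and Tagln ended under other settings. The log2 change of Flna was 0.47 after the length and GC correction, 0.58 after median-ratio scaling and 0.51 without Resist replicate 4, under the 1.5-fold threshold each time, and with all groups in 1 fit its limma adjusted p was 0.0816. Tagln was not called after the same scaling or correction (0.55 and 0.55), and its log2 change was 0.52 (limma adjusted p = 0.0577) without Resist replicate 3 and 0.52 (limma adjusted p = 0.0545) without Resist replicate 4. Without Naive replicate 1, 2, 4 or 5 it lay between 0.55 and 0.57, also not called.

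The remaining smooth muscle genes were scarce in every group. Tpm2 (Entrez gene 22004) was at 0.04, 0.13, 0.04, 0.28 and 0 FPKM in Naive and 0.10, 0.31, 0.62, 0.95 and 0.15 FPKM in Resist libraries, which overlapped (exact two-sided permutation test of the difference in mean, p = 0.0714, n = 5 per group). Acta2 (Entrez gene 11475) reached 0.26 FPKM in Naive and 0.59 FPKM in Resist (exact permutation p = 0.103, n = 5 per group), and Myl9 (Entrez gene 98932) reached 0.25 and 0.38 FPKM (exact permutation p = 0.349, n = 5 per group). Cnn1 (Entrez gene 12797) was listed at 0 in every library but Resist replicate 5, at 0.04 FPKM, and Resist-Mac replicate 5, at 0.05 FPKM. Without Resist replicate 2, listed at 0, the exact test of Acta2 gave p = 0.0159, and that of Tpm2 gave p = 0.0317 without Resist replicate 1 or Naive replicate 4. In all, 15 such tests were made over the 4 comparisons, unadjusted, with 0.00794 the smallest p that 5 against 5 allow, and 1 had a p under 0.05, that of Ablim1 given below with the depleted groups.

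Markers of other cells that carry contractile genes were measured beside these values. Of 7 smooth muscle and pericyte markers, Myh11 and Lmod1, which define smooth muscle, were listed at 0 in all 10 Naive and Resist libraries and Des did not exceed 0.11 FPKM in any library; the summed level was 3.01 to 4.17 FPKM in Naive and 3.24 to 4.62 FPKM in Resist, mostly Notch3 and Myocd. Notch3 was at 2.25 to 3.25 FPKM in Naive and 1.66 to 2.63 FPKM in Resist, Myocd at 0.54 to 0.82 and 0.64 to 2.0 FPKM, Cspg4 at 0.05 to 0.14 and 0.08 to 0.20 FPKM, and Rgs5 at up to 0.04 and 0.12 FPKM. The 7 fibroblast and stromal markers summed to 3.8 to 8.89 FPKM in Naive and 1.56 to 30.3 FPKM in Resist libraries. Resist replicate 2 had the lowest sum, 1.56 FPKM, with the lowest Flnc, Ablim1 and Tagln of its group. Resist replicate 5 had the highest sum, 30.3 FPKM, with the lowest Flna, Aif1l and Mylk of its group. Over 10212 genes, Resist replicate 2 was lowest of its group in 24.5% and Resist replicate 5 in 27.4%. The 6 skeletal muscle markers, listed because Flnc is a muscle filamin, summed to 6.66 to 12.4 FPKM in Naive and 4.95 to 9.68 FPKM in Resist libraries, with Myh4 at 0 in every one. The 4 osteoblast markers summed to 7.18 to 8.83 and 8.40 to 12.5 FPKM, nearly all Runx2, the 4 endothelial markers to 0.36 to 1.52 and 0.17 to 2.94 FPKM, and the 4 platelet markers to 0.03 to 1.01 and 0.15 to 1.40 FPKM. Macrophage markers summed to 0.97 to 3.8 FPKM in Naive and 1.30 to 3.95 FPKM in Resist libraries, all 7 of them above 0 in either group, and Aif1 itself did not exceed 0.12 FPKM in these libraries or 0.93 FPKM in the depleted ones. The part of these other cells in the Resist values was not tested. Reads of Acta2, Myl9, Tpm2 and the filamins could also be shared with near paralogs, and Mylk, Tagln and Aif1l overlap genes on the opposite strand (Pcsk7 for Tagln), which cannot be told apart because the use of strand in counting is not given in the sources used here.

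The genes whose log2(FPKM + 1) was most like that of Flnc over the 10 Naive and Resist libraries were Adgrf5 (Pearson r = 0.99), an adhesion receptor, Fcgrt (0.99), the neonatal Fc receptor, Aldh1a7 (0.99), an aldehyde dehydrogenase, Peli2 (0.98), a ubiquitin ligase, and Fbxo10 (0.98), an F-box protein. These r values contain the difference between groups, and the 10 libraries share a table. Among 10118 genes compared this way Ablim1 was at position 17 (r = 0.97), Aif1l at 27 (0.96), Mylk at 90 (0.95), Tagln at 800 (0.83) and Flna at 883 (0.82). After the group means were subtracted, the genes most like Flnc were Kif1c (0.97), a kinesin, Ubox5 (0.96), Inava (0.96), Lrrc31 (0.96) and Tacc2 (0.96), while Ablim1 was at position 44 (0.86), Flna at 1534 (0.50), Aif1l at 1773 (0.46), Tagln at 2520 (0.37) and Mylk at 2906 (0.33). Of these 5 members Ablim1 had the highest r with Flnc on either scale; Acta2, Cnn1, Myl9 and Tpm2 lay under the filter and were not compared.

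Other actin genes were taken from a list of 80 genes in 6 groups, of which 57 were tested in Resist vs Naive. Of these, 10 rose, against 5.25% of all genes, and 1 fell, against 1.11%, and the median log2 change of the list was 0.17, against 0.033 over all genes tested. With length and GC corrected for, the list's median was 0.053. Of 12 crosslinkers tested, 6 rose, but 3 of these, Synpo, Dbn1 and Eps8, had Naive means under the filter (0.948, 0.596 and 0.538 FPKM) and were tested only through Resist; Eps8 is outside the naming rule and was named after its values were seen. Synpo, which encodes the actin bundler synaptopodin, was at 0.57 to 1.19 FPKM in Naive and 1.56 to 11.5 FPKM in Resist libraries (log2 change 1.69, SE 0.32, limma adjusted p = 0.0041). Dbn1, encoding drebrin, rose by 0.97 (log2; SE 0.30, limma adjusted p = 0.0423) but overlapped through Resist replicate 5, at 0.42 FPKM. Actn1, encoding an alpha-actinin that links stress fibers to adhesions, rose from 50.9 to 68.3 FPKM in Naive to 73.9 to 136 FPKM in Resist libraries (log2 change 0.75, SE 0.14, limma adjusted p = 0.00459).

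Of 13 myosin genes and regulators tested, 2 rose. Cald1, encoding caldesmon, which restrains myosin on actin, went from 1.5, 0.69, 1.31, 2.16 and 0.94 FPKM in Naive to 16.3, 5.73, 11.6, 10.6 and 3.81 FPKM in Resist libraries (log2 change 2.08, SE 0.30, limma adjusted p = 0.00105). Rhoc, a small GTPase, rose by 0.77 (SE 0.16, limma adjusted p = 0.00594). Of 9 tropomyosin, calponin and actin genes tested, Tpm1 rose, from 85.3 to 115 FPKM in Naive to 131 to 221 FPKM in Resist libraries (log2 change 0.92, SE 0.13, limma adjusted p = 0.001). Tpm1, encoding alpha-tropomyosin, was thus far above Tpm2, which did not exceed 0.95 FPKM in these libraries.

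Of 12 LIM and focal adhesion genes tested, Csrp2, a LIM protein of smooth muscle, rose by 0.73 (SE 0.16, limma adjusted p = 0.0092), and Fhl1, a four-and-a-half LIM protein of muscle, fell (log2 change -0.95, SE 0.25, limma adjusted p = 0.0215), with overlapping groups. Of 11 genes tested with limma in the SRF-MRTF group, which also held Tgfb1 and Tgfbr1, 0 were called and 3 had an unadjusted p under 0.05. The groups were drawn by hand with each gene in only 1 of them. This count therefore does not cover SRF-responsive genes placed in other groups or among the members. After the length and GC correction 9 list genes were called higher and 1 lower, where 4.13% of 9880 genes were called higher and 1.63% lower. The list and its groups were written with earlier results of these data known.

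**Figure D2:**
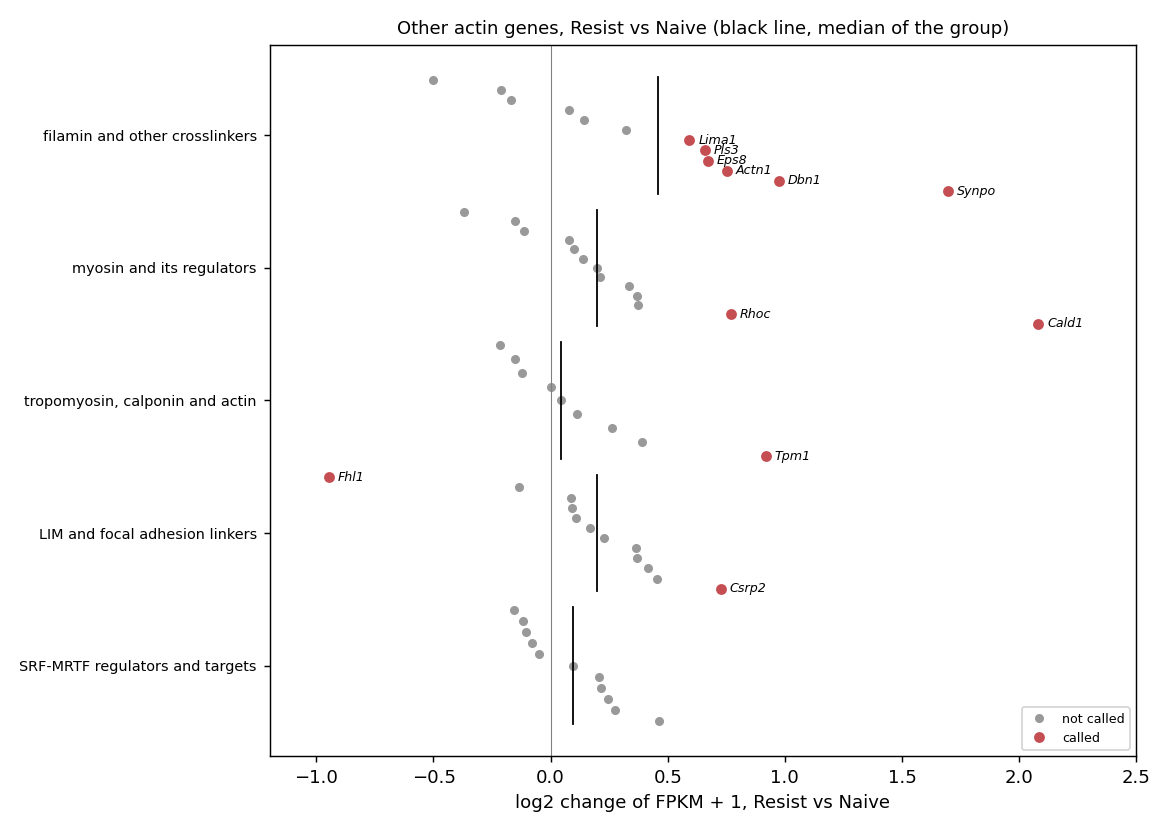
Log2 change of FPKM + 1 in Resist vs Naive (horizontal axis) for the 57 other actin genes tested, in 5 groups; each point is a gene, red where called, and the black line is the median of the group. The called genes lie at 0.59 or higher except Fhl1, at -0.95. No gene placed in the SRF-MRTF group is called, and SRF-responsive genes placed in other groups are not part of it.

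Macrophage depletion of resistant tumors was compared as Resist vs Resist-Mac, across tables. The Resist-Mac libraries, replicates 1 to 5, had Flnc at 12.6, 13.4, 20.5, 15.4 and 17.2 FPKM, Mylk at 3.38, 3.37, 3.60, 3.46 and 1.78 FPKM, and Ablim1 at 1.2, 2.13, 2.10, 1.45 and 0.55 FPKM. Mylk and Ablim1 did not overlap with Resist, while Flnc overlapped through Resist-Mac replicate 3. Of the 10049 genes tested, 29.7% did not overlap between these groups. Aif1l was at 24.0, 34.3, 29.2, 18.9 and 6.13 FPKM, within the range of Resist apart from replicate 5. As a description, the log2 changes were 0.57 for Flnc, 0.99 for Mylk, 1.05 for Ablim1 and 0.52 for Aif1l.

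These log2 changes moved with transcript length. The Spearman correlation between log2 change and transcript length, taken over genes (not independent replicates), was 0.16 for Resist vs Naive. It was 0.64 for Resist vs Resist-Mac, 0.71 for Naive vs Naive-Mac and 0.61 between the depleted groups. For Resist vs Resist-Mac the median was -0.72 for genes under 1000 bases and 0.67 for those above 8000 bases. Transcripts of Flnc (9038 bases), Flna (8456 bases), Mylk (7824 bases) and Ablim1 (7152 bases) are long, while those of Aif1l (3117 bases) and Tagln (1595 bases) are shorter. Scaling moved the values too: with median-ratio scaling the median over all genes went from 0.23 to -0.05 for Naive vs Naive-Mac and from 0.34 to -0.04 between the depleted groups, with 2881 higher and 3063 lower calls in place of 3691 and 2177, and 2187 and 2291 in place of 3631 and 878. In Resist vs Naive it gave 458 and 148 in place of 531 and 112, and the length and GC correction gave 408 and 161. After that correction, in Resist vs Resist-Mac, the log2 changes were -0.07 for Flnc, 0.44 for Mylk, 0.57 for Ablim1 and 0.57 for Aif1l.

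**Figure D3:**
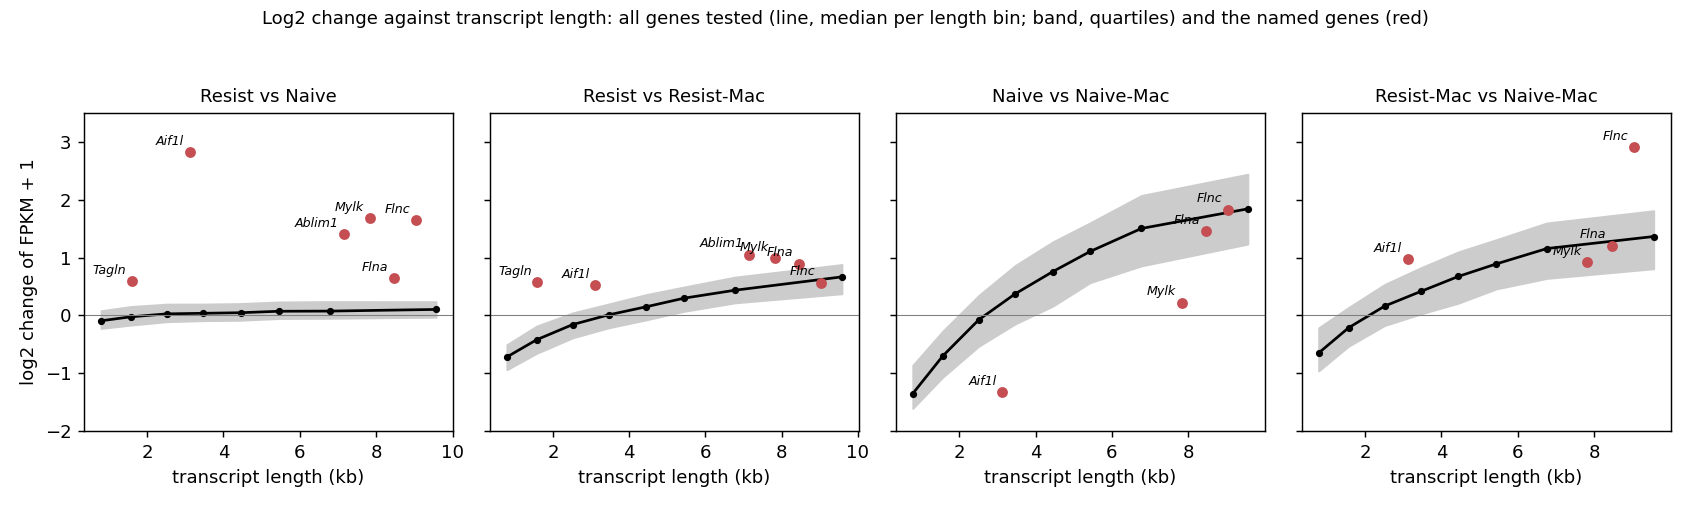
Log2 change of FPKM + 1 (vertical axis) against transcript length in kb (horizontal axis) in the 4 comparisons; the line is the median of all genes tested per length bin, the band their quartiles, and red points the members tested. In Resist vs Naive the line stays between -0.09 and 0.10, and in Naive vs Naive-Mac it runs from -1.35 to 1.84, with Flnc and Flna near it.

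The members chosen on function were tested in Resist vs Resist-Mac. Flna was at 75.7, 54.7, 65.9, 102 and 89.2 FPKM in Resist-Mac libraries, overlapping with Resist through Resist replicate 5, and was called higher in Resist (log2 change 0.89, SE 0.20, limma adjusted p = 0.00397). That call ended after the length and GC correction (0.30, limma adjusted p = 0.144). Tagln was at 0.98, 0.70, 0.89, 0.99 and 1.11 FPKM, below every Resist library, with a log2 change of 0.57 that missed the fold threshold (SE 0.16, limma adjusted p = 0.0111). It was called after the correction (0.97, limma adjusted p = 0.00071), with a pseudocount of 0.1 (0.93, limma adjusted p = 0.0116) and without Resist replicate 1, 2 or 5 or Resist-Mac replicate 5 (0.59 to 0.64). Its Resist-Mac mean, 0.934 FPKM, is under the filter, so Tagln was tested only through its high Resist libraries and these calls support nothing.

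In that comparison 6 members were tested and 3 were called higher in Resist (Flna, Mylk and Ablim1), where 9.71% of 10049 genes were called higher and 12% lower. Mylk and Ablim1 were chosen on these Resist libraries, so nothing is read from the count. After the length and GC correction 1 member was called, Tagln, where 4.01% of 10027 genes were called higher and 4.76% lower. Acta2 reached 0.58 FPKM, Myl9 0.45 FPKM and Tpm2 3.21 FPKM in Resist-Mac libraries, and each overlapped with Resist (exact permutation p = 0.976, 0.865 and 0.587, n = 5 per group). The highest Tpm2 value was that of Resist-Mac replicate 4, where the others were at 0.17 to 0.68 FPKM. Of the 57 other actin genes tested, 11 were higher and 4 lower in Resist, and after the correction 2 were higher and 1 lower.

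Macrophage depletion of naive tumors, Naive vs Naive-Mac, is the comparison in which Flnc, Flna, Mylk and Ablim1 had their lowest means of the 4 groups, in Naive-Mac. Flnc was at 0.84, 3.07, 0.89, 1.02 and 0.82 FPKM in Naive-Mac libraries, all below Naive, and Flna was at 16.6, 33.9, 50.2, 45.0 and 27.0 FPKM, also below Naive. Mylk was at 1.03, 2.31, 0.97, 1.17 and 0.60 FPKM, and Ablim1 was at 0.09, 0.74, 0.44, 0.22 and 0.38 FPKM, both overlapping with Naive. Aif1l ran the other way, at 7.46, 27.1, 7.70, 9.40 and 5.01 FPKM, above every Naive library. Of the 9837 genes tested, 66% did not overlap between these groups, so nothing is read from this separation.

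Flna was called higher in Naive than in Naive-Mac (log2 change 1.46, SE 0.23, limma adjusted p = 5.36e-05), and this turned to -0.43 (limma adjusted p = 0.0259) after the length and GC correction. As a description, the log2 change of Flnc was 1.83 and became -0.25, that of Mylk was 0.22 and became -1.58, and that of Aif1l was -1.33 and became -1.61. Of 4 members tested, 2 were called higher in Naive and 1 lower, where 37.5% of 9837 genes were called higher and 22.1% lower, and of 53 other actin genes 28 were higher and 9 lower. After the length and GC correction all 4 log2 changes were below 0 and 2 members were called lower, Mylk (limma adjusted p = 9.07e-06) and Aif1l, and 22 actin genes were higher and 6 lower, where 18.9% of 9655 genes were called higher and 17.9% lower. Flnc, Mylk and Aif1l were chosen with the Naive libraries, so nothing is read from their calls. Tagln was at 1.82, 0.74, 0.19, 0.50 and 0.60 FPKM in Naive-Mac libraries (exact permutation p = 0.595, n = 5 per group), and without Naive-Mac replicate 1 the same exact test gave p = 0.0476. Tpm2, Acta2 and Myl9 reached 0.50, 0.11 and 0.10 FPKM in Naive-Mac and overlapped with Naive (exact permutation p = 0.746, 0.381 and 0.643, n = 5 per group).

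Resist-Mac vs Naive-Mac compares resistant with naive tumors when macrophages were depleted in either. Its libraries lie outside Resist vs Naive, the comparison that chose Flnc, Aif1l, Mylk and Ablim1. All members could therefore be tested there except Cnn1, which was listed at 0 in all but 1 of these libraries. The members were chosen with earlier results of these data known, so these tests may not be fully independent of the choice. Flnc was higher in every Resist-Mac library than in any Naive-Mac library, 11.9-fold on average, with 15.8 ± 3.18 FPKM (SD, n = 5) against 1.33 ± 0.98 (SD, n = 5), and its log2 change of 2.91 (SE 0.23, limma adjusted p = 5.79e-07) was at position 15 from the highest of 9760 genes. After the length and GC correction it was 1.29 (limma adjusted p = 0.000464) and still called. Of the 9760 genes tested, 47.8% did not overlap between these groups. Flna and Mylk were called higher at first (log2 changes 1.21, SE 0.26, limma adjusted p = 0.00123, and 0.91, SE 0.21, limma adjusted p = 0.00194). Both turned negative after the correction (-0.23, limma adjusted p = 0.259, and -0.46, limma adjusted p = 0.135).

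Aif1l was higher by 0.97 in Resist-Mac (SE 0.44) and was not called (limma adjusted p = 0.0714), with Resist-Mac replicate 5 at 6.13 FPKM and Naive-Mac replicate 2 at 27.1 FPKM crossing the groups. Without Naive-Mac replicate 2 the log2 change was 1.33 (limma adjusted p = 0.00944) and without Resist-Mac replicate 5 it was 1.36 (limma adjusted p = 0.00604). After the length and GC correction it was 0.58 (limma adjusted p = 0.335). It was also called with all groups in 1 fit (limma adjusted p = 0.0346) and with the replicate number as a block (limma adjusted p = 0.00433). Ablim1, under the filter here, averaged 1.49 ± 0.66 FPKM (SD, n = 5) in Resist-Mac and 0.374 ± 0.25 (SD, n = 5) in Naive-Mac, overlapping through Resist-Mac replicate 5 (exact permutation p = 0.0159, n = 5 per group). The exact test was not corrected for transcript length. Ablim1 has 7152 bases, and genes of 6000 to 8000 bases had a median log2 change of 1.15 in this comparison.

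Tagln, Tpm2, Acta2 and Myl9 overlapped between Resist-Mac and Naive-Mac (exact permutation p = 0.619, 0.0635, 0.0952 and 0.222, n = 5 per group). The result for Tpm2 depended on single libraries: the same exact test gave p = 0.0159 without Naive-Mac replicate 2 and p = 0.0476 without Resist-Mac replicate 2 or 3, and that of Tagln gave p = 0.0317 without Naive-Mac replicate 1. Of 4 members tested by limma, 3 were called higher, where 37.2% of 9760 genes were called higher and 9% lower, and after the correction 1 was called, Flnc. Of 56 other actin genes 30 were called higher and 0 lower, with 39 at an unadjusted p under 0.05, and after the correction 18 were higher and 3 lower, where 12.7% of 9737 genes were called higher and 13.6% lower. The 7 smooth muscle markers summed to 1.44 to 3.09 FPKM over the 5 listed in Resist-Mac and 0.21 to 0.90 FPKM over the 6 listed in Naive-Mac libraries, and Ptprc, which encodes CD45, was at 0.37 to 5.35 and 0 to 1.84 FPKM. Macrophage markers summed to 0.96 to 8.56 FPKM in Resist-Mac and 0.56 to 4.39 FPKM in Naive-Mac libraries. The fibroblast and stromal markers summed to 1.32 to 7.60 FPKM in Resist-Mac and 1.27 to 2.68 FPKM in Naive-Mac libraries. The part of these other cells in the differences was not tested.

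**Figure D4:**
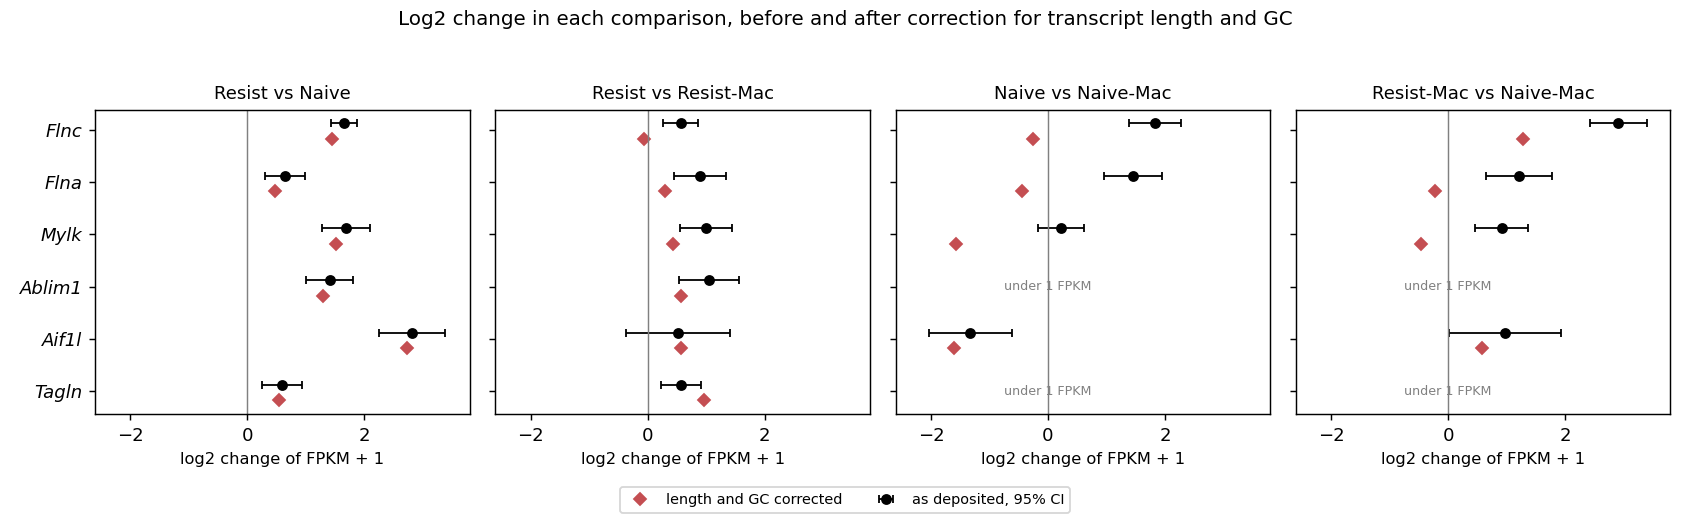
Log2 change of FPKM + 1 (horizontal axis) of the 6 members with a mean of at least 1 FPKM in the 4 comparisons; black points give the limma estimate with its 95% confidence interval, and red diamonds the value once transcript length and GC were corrected for. In Resist vs Naive the paired values lie close together, and in Naive vs Naive-Mac those of Flnc and Flna lie on opposite sides of 0.

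Whether the resistance change differed with depletion was tested for the members chosen on function that passed the filter, over all 20 libraries. The log2 change of Flna in Resist vs Naive minus that in Resist-Mac vs Naive-Mac was -0.57 (SE 0.33, limma adjusted p = 0.157), and it turned to 0.68 (limma adjusted p = 0.0211) after the length and GC correction. For Tagln, which again reached the filter through Resist alone, it was 0.40 (SE 0.26, limma adjusted p = 0.207). Neither passed the threshold as measured, where 40.7% of the 9876 genes tested were called, so nothing is read from this count. The other members were not tested in this way because their own change in Resist vs Naive chose them or because they lay under the filter.

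The order of FPKM as measured over the 4 groups is given gene by gene, as a description only. It crosses tables and batches and is not corrected for transcript length or GC. Between Naive and Naive-Mac that correction turned the log2 change of Flnc (-0.25), Flna (-0.43) and Mylk (-1.58), while Aif1l kept its sign (-1.61). Between Resist and Resist-Mac it turned Flnc (-0.07), while Flna, Mylk, Ablim1 and Aif1l kept their sign. Flnc descended from Resist through Resist-Mac and Naive to Naive-Mac, where neighbouring groups overlapped only between Resist and Resist-Mac. Flna ran from Resist through Naive and Resist-Mac to Naive-Mac, with overlap between Resist and Naive and between Naive and Resist-Mac. For Mylk the order was Resist, Resist-Mac, Naive and Naive-Mac, and its last 3 groups overlapped with their neighbours. Ablim1 had the same order and the same overlaps. Of these 5 genes, Aif1l alone had Naive lowest, and its Resist, Resist-Mac and Naive-Mac groups overlapped with their neighbours.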

How the data were processed

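Sorted MycCaP-Bo cells of 4 groups, 5 libraries each, were profiled by oligo dT RNA sequencing (BGISEQ). The authors deposited log2(FPKM + 1) values for Naive and Resist and FPKM values for Resist-Mac and Naive-Mac; per the submitters' processing notes Bowtie2 and mm9 were used, and the program that made the FPKM is not given in the sources used here. The tables hold 17485, 14077 and 15867 genes, the first with 752 BGI_novel entries that were left out, and 16978 of 17104 genes matched a symbol. The log2 values were returned to FPKM, and 100% then had 2 decimals (tolerance 0.0001). Depth is unknown, so no counting interval is given. The members and gene lists were chosen with earlier results of these data known.

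Comparisons used limma 3.58.1 (R 4.3.3; empirical Bayes with trend) on log2(FPKM + 1) of genes averaging 1 FPKM or more, called at an adjusted p under 0.05 and a fold over 1.5. Members under the filter had exact two-sided permutation tests (scipy 1.17.1). The length and GC correction subtracted natural splines with 4 degrees of freedom. Alternatives were median-ratio scaling, a pseudocount of 0.1, a mean of at least 5 FPKM or no filter, a fold over 2, a replicate block, all groups in 1 fit and leaving out each library. From the pathway list, at most 3 called genes per group and direction in Resist vs Naive were named, by size of log2 change, plus Aif1 and the 5 genes most like Flnc; some items are not reported here. The fit was tested on simulated data.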

Additional observations from a re-analysis of the deposited data

Results flagged for a closer look

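In 6 of 36 sets of 5 libraries, 1 library lay far from the other 4 (a gap to the nearest library of more than 0.71 of the range). The sets share libraries and some lie near 0, so no chance rate is given for them. Flnc was at 3.07 FPKM in Naive-Mac replicate 2, against 0.82 to 1.02 FPKM in the others. In the same library Aif1l was at 27.12 FPKM, against 5.01 to 9.40 FPKM, and Tpm2 at 0.50 FPKM, against at most 0.09 FPKM. Vim, which encodes vimentin, was at 99.9 FPKM in that library and at 9.88 to 32.7 FPKM in the other 4, and the library was highest of its group in 20.6% of 9283 genes and in 3 of 4 members with a mean of at least 1 FPKM. Mylk was at 1.78 FPKM in Resist-Mac replicate 5, against 3.37 to 3.60 FPKM. Tagln was at 1.52 FPKM in Naive replicate 3, against 0.72 to 0.83 FPKM. Tpm2 was at 3.21 FPKM in Resist-Mac replicate 4, against 0.17 to 0.68 FPKM.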

How the results depend on the processing

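The share of all genes called was not taken at every setting below, so nothing is read from how the counts moved. Members called in Resist vs Naive numbered 6, 3 among genes averaging 5 FPKM or more, and 4 to 6 when single libraries were left out. For Resist vs Resist-Mac the number was 3, 5 with a pseudocount of 0.1, 1 after the length and GC correction, 1 at a fold over 2 and 3 to 5 without single libraries. In Resist-Mac vs Naive-Mac they numbered 3, and 1 after that correction. Pathway genes called in Resist vs Naive numbered 11, 2 at a fold over 2 and 7 to 11 without single libraries (7 without Resist replicate 4 or Naive replicate 2 or 5); in Resist vs Resist-Mac 15, 3 after the correction, 0 at a fold over 2 (29 had an unadjusted limma p under 0.05) and 11 to 21 without single libraries. The correction turned the sign of Flnc (-0.25), Flna (-0.43) and Mylk (-1.58, called lower) in Naive vs Naive-Mac, Flnc (-0.07) in Resist vs Resist-Mac, Flna (-0.23) and Mylk (-0.46) in Resist-Mac vs Naive-Mac, and the difference between resistance changes of Flna (0.68); the cause was not tested. Median-ratio scaling reversed the mean difference of Tagln in Naive vs Naive-Mac (-0.11 FPKM) and Resist-Mac vs Naive-Mac (-0.20 FPKM).

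Leaving out single libraries, an alternative chosen after seeing the data for the exact tests, as was their scaling, gave mean differences in FPKM of 0.149 to 0.296 for Acta2 and 0.197 to 0.410 for Tpm2 in Resist vs Naive. Between Resist and Resist-Mac they were -0.0595 to 0.0880 for Acta2, -0.0845 to 0.0300 for Myl9 and -0.717 to 0.0435 for Tpm2. In Naive vs Naive-Mac they were 0.010 to 0.421 for Tagln and -0.0835 to 0.0530 for Tpm2, and in Resist-Mac vs Naive-Mac 0.019 to 0.427 for Tagln and 0.247 to 1.01 for Tpm2. Same-numbered libraries deviated together by r = -0.38 to 0.36, over 0.1 in 0, 2, 1 and 3 of 5 pairs of the 4 comparisons, so the numbers do not pair the libraries. With the replicate block Aif1l in Resist-Mac vs Naive-Mac (log2 change 0.97) was called, and no other member's call changed. Of the alternative values, 16 reversed, 17 fell below the threshold, 18 passed it and 23 moved. The other 635 were labelled as the same, but this does not mean that every call stayed. They include counts of called genes. Mylk in Resist vs Resist-Mac lost its call at a fold over 2 although its log2 change was still 0.99. Depth is unknown, so levels near 0 limit Cnn1, Myl9, Acta2 and Tpm2.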
